A study of Mus musculus with 4 samples.

Results

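Genes for chaperones of the endoplasmic reticulum (ER) and for the unfolded protein response (UPR) were described in the lesioned spinal cord of male mice. The 40 genes, of 14718 in the series, form a functional group that was chosen by the ApoE4 to ApoE3 ratios at 7 dpi in these same libraries. Those ratios are therefore given as a description and support nothing further. Of the 40 genes, 39 were among the 14125 genes listed at 7 dpi and 36 were among the 11472 listed at 21 dpi. TXNDC5 was not listed at either time, and PDIA3, HERPUD1 and SEL1L were not listed at 21 dpi. All other members had a mean above 1 FPKM at both times. Gene symbols are written in capitals, as deposited.

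Targeted replacement (TR) mice carry human ApoE3 or human ApoE4 in place of the mouse gene, and the study asked how the isoform affects recovery from a contusion of the mid-thoracic cord. RNA of the lesion segment was sequenced in 4 groups of injured males, which were ApoE3 and ApoE4 at 7 days post injury (dpi) and ApoE3 and ApoE4 at 21 dpi. The values of the mice in a group were pooled by the authors into 1 value per gene, in FPKM (fragments per kilobase of transcript, scaled to the sequenced fragments). The values used here do not show how far the mice of a group differed, and no test was run on them. No sham group was used here, so the levels before injury are not known, and the number of reads behind the value of each gene is not known either. Libraries were reduced by the authors to a common number of reads before alignment, and the mice were adults. The paper describes 1 replicate with a lower share of aligned reads than the others, and does not name its group in the text. The number of aligned reads may therefore have differed between libraries. APOE, the replaced gene, was listed at 21 dpi only, with 843 FPKM in ApoE3 and 1311 FPKM in ApoE4. The authors aligned reads to the mouse genome, while these mice carry the human coding region. The APOE values may therefore miss human reads, and they do not tell the isoforms apart. They are also not corrected for the shift of all genes at 21 dpi that is described below.

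The deposited table can be read in more than 1 way. Each comparison is named as ApoE3 versus ApoE4, and the first value column was read as ApoE3 on that basis. The numbering of the sample columns would instead pair that column with ApoE4, and every direction between genotypes given here would then be the opposite. For the later time point, the paper describes more genes as higher in ApoE4 than as higher in ApoE3. With the reading by name, 93.8% of genes listed at 21 dpi had the higher value in ApoE4, which is the same direction. The reading by column number gives the opposite direction. Ratios are log2((FPKM ApoE4 + 1)/(FPKM ApoE3 + 1)), so that a positive ratio means higher in ApoE4. Changes of weakly expressed genes come out too small on this scale. A gene was called higher in a group where the fold on this scale was at least 1.3, which is 0.38 in log2.

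The groups of 7 dpi were on a common scale, with a log2 ratio of total FPKM of 0.00018 and a median ratio over all genes of -0.0020. At 21 dpi the log2 ratio of total FPKM was 0.44, with the larger total in ApoE4, and the median ratio of genes with a mean of at least 1 FPKM was 0.42. Of all genes listed at 21 dpi, 93.8% had a ratio above 0, whatever its size. Ratios of 21 dpi are therefore also given after this median was subtracted, and are then called centred. The time points may have been normalized separately, so levels of 7 and 21 dpi are set side by side and were not tested against each other.

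Spinal cord markers were abundant in every group. GFAP, the astrocyte filament protein, had 12395 FPKM in ApoE3 and 12386 FPKM in ApoE4 at 7 dpi, and 8201 and 15313 at 21 dpi. SNAP25, a neuronal vesicle fusion protein, had 3366 and 2545 FPKM at 7 dpi, and 5336 and 7812 at 21 dpi. Genes of tissue outside the cord differed between the genotypes at 21 dpi. The 7 listed skeletal muscle genes summed to 28.01 FPKM in ApoE3 and 696 FPKM in ApoE4, with MYH4 at 0 in ApoE3. The 8 listed liver genes summed to 10.7 and 133 FPKM, and the 8 listed Schwann cell genes to 3461 and 1678. The part of these tissues in the ratios at 21 dpi was not tested.

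Proteins that enter the secretory pathway fold in the ER with the help of HSP70 and HSP90 chaperones, lectins that hold glycoproteins, disulfide isomerases and prolyl isomerases. When unfolded protein accumulates, the membrane sensors IRE1, ATF6 and PERK start the UPR, which raises the genes for chaperones and for the export and degradation of misfolded protein. Cells with a high secretory load, such as fibroblasts that lay down collagen and plasma cells that release antibody, carry high levels of these genes.

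Many of these genes share a promoter element through which ATF6 and XBP1 act, the ER stress response element (ERSE). It was searched as CCAAT, then any 9 bases, then CCACG, on both strands of RefSeq promoter windows of GRCm38.p6 that run from 250 bases before to 50 bases after each start. Of the 40 members, 33 had a window, and 9 of these 33 held the ERSE. Of all 27025 genes with a window, 37 held it, which is 0.137%, and of all 32851 windows 0.119%. The members without a window were HYOU1, MANF, ATF6, DERL1, SEC61A1, SSR2 and SEC11C. The 9 members with the element are shown because the element is shared by genes with ratios at 7 dpi from 0.097 in CANX to 1.03 in CRELD2. Each run below reads 5′ to 3′ along the gene, with the element in capitals and 20 bases on each side. In HSP90B1 (the site nearer to the start), CALR, CRELD2 and DERL3 the element lies on the opposite strand, so that it reads CGTGG, any 9 bases, ATTGG.
HSPA5, chr2:34772005-34772063, plus strand: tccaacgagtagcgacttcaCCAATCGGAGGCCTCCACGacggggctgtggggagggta
HSP90B1, chr10:86705618-86705676, minus strand: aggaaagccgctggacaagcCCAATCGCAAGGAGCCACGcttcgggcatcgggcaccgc
HSP90B1, chr10:86705513-86705571, minus strand: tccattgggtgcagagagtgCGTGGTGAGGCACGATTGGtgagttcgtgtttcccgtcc
DNAJC3, chr14:118937807-118937865, plus strand: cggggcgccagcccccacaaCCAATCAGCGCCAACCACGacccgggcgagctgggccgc
CALR, chr8:84847055-84847113, minus strand: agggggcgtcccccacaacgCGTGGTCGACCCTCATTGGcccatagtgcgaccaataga
CANX, chr11:50325780-50325838, minus strand: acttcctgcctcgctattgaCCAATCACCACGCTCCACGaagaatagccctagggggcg
CRELD2, chr15:88819500-88819558, plus strand: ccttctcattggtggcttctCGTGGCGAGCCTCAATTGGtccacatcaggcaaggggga
PDIA6, chr12:17266471-17266529, plus strand: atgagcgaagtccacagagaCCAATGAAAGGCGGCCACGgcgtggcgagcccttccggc
SYVN1, chr19:6046512-6046570, plus strand: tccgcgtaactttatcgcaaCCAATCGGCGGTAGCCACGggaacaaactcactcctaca
DERL3, chr10:75893222-75893280, plus strand: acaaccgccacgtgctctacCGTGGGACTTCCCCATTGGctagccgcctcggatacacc

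A related element, ERSE-II, was searched as ATTGG, any base, CCACG. It was in 2 of the 33 member windows, those of DNAJB11, from 8 to 18 bases after the start, and HERPUD1, and in 0.0444% of all genes. HERPUD1 is shown because it had the lowest ratio of the members at 7 dpi.
HERPUD1, chr8:94386357-94386407, plus strand: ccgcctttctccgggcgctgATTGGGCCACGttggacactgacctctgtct
The UPR element (UPRE), searched as TGACGTGG, was in 2 of the 33, TXNDC5 and TXNDC11, and in 0.714% of all genes. Over all windows, 2 of 40 ERSE sites and 1 of 12 ERSE-II sites overlapped a UPRE site, and no ERSE site overlapped an ERSE-II site. A match of letters is a description and does not show that a factor binds there.

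**Figure D1:**
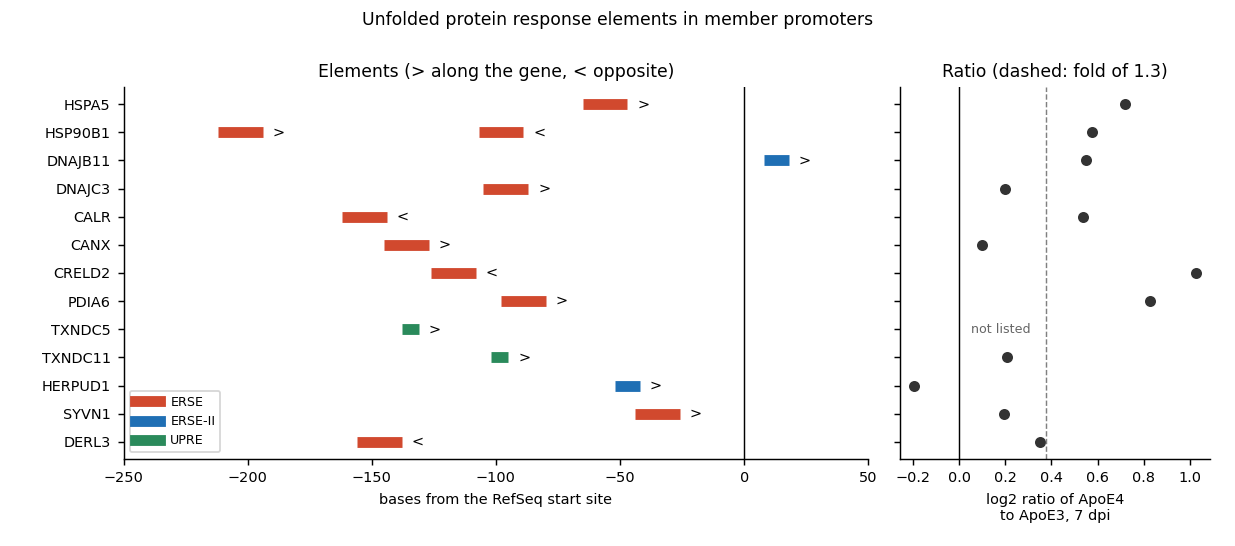
Position of each element in the member promoters, in bases from the RefSeq start site (left), and the log2 ratio of ApoE4 to ApoE3 at 7 dpi of the same gene (right). Bars mark the ERSE, ERSE-II and UPRE sites, and the ERSE sites lie before the start. Of the 9 genes with an ERSE, 5 are past the dashed fold of 1.3, compared to 4.76% of all genes.

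At 7 dpi, 14 of the 39 listed members were higher in ApoE4, compared to 4.76% of all genes. None was higher in ApoE3, compared to 3.78% of all genes. The median ratio of the members was 0.25, beside -0.0020 for all genes, and 34 of the 39 lay above 0. In all, the members summed to 3739 FPKM in ApoE3 and 4665 FPKM in ApoE4, which is 0.224% and 0.279% of the total. Of the 14, 13 encode chaperones, their cofactors, disulfide isomerases or small stress-induced proteins of the ER lumen, and DERL2 encodes a membrane protein of degradation. The members nearest to the threshold were P4HB, at a fold of 1.32, and DERL2, at 1.33, on the inside, and DERL3, at 1.28, and EDEM1, at 1.26, on the outside. The genotypes were set against each other in bulk tissue, where fewer cells of a type and less RNA per cell cannot be told apart.

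**Figure D2:**
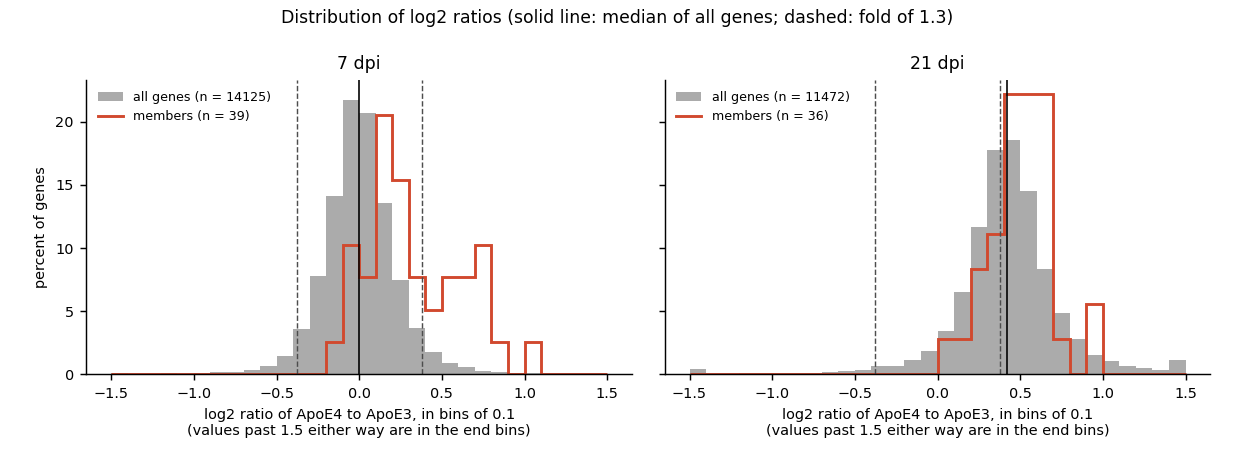
Distribution of the log2 ratio of ApoE4 to ApoE3 in bins of 0.1, as percent of all listed genes (grey) and of the listed members (red line), at 7 and 21 dpi. The members reach 1.03 at 7 dpi, where the median of all genes is -0.0020, and at 21 dpi all 36 listed members and 93.8% of all genes lie above 0, with a median of 0.42 for all genes.

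At 21 dpi, 29 of the 36 listed members were higher in ApoE4, compared to 58.9% of all genes, and none was higher in ApoE3, compared to 2.01%. The median ratio of the members was 0.52. After centring, 2 of 36 were higher in ApoE4, SEC61B and DERL3, compared to 8.07% of all genes. None was higher in ApoE3 after centring, compared to 7.46%. The centred median was 0.097, with 25 members above 0 and 11 below. After centring, both shares of members called were under those of all genes, a difference that rests on few members and was not tested. The difference between the time points was not tested.

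The HSP70 and HSP90 chaperones and their cofactors had a median ratio of 0.58 at 7 dpi, with 5 of 7 genes higher in ApoE4. HSPA5 (BiP), the HSP70 of the ER lumen, had 249 FPKM in ApoE3 and 409.8 FPKM in ApoE4 at 7 dpi, and 168 and 261 at 21 dpi. HSP90B1 (GRP94), the HSP90 of the lumen, had 199 and 297 FPKM at 7 dpi, and 128 and 206 at 21 dpi. The ratios of HSPA5 and HSP90B1 at 7 dpi were 0.72 and 0.58, and their centred ratios at 21 dpi were 0.21 and 0.26. HYOU1, which exchanges the nucleotide of HSPA5, had 82.5 FPKM in ApoE3 and 127 FPKM in ApoE4 at 7 dpi, and 89.4 and 121 at 21 dpi. Its ratio at 7 dpi was 0.62.

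The J-domain partners of HSPA5 had ratios of different size at 7 dpi. DNAJB11 had 55.01 FPKM in ApoE3 and 81.01 FPKM in ApoE4 at 7 dpi, and 52.7 and 81.9 at 21 dpi. DNAJB9 had 14.7 and 15.01 FPKM at 7 dpi, and 13.1 and 18.5 at 21 dpi. DNAJC3 had 18.8 and 21.7 FPKM at 7 dpi, and 13.2 and 20.4 at 21 dpi. The ratio at 7 dpi was 0.55 for DNAJB11, 0.026 for DNAJB9 and 0.20 for DNAJC3. SDF2L1, a luminal partner of DNAJB11, had 35.5 FPKM in ApoE3 and 62.1 FPKM in ApoE4 at 7 dpi, a ratio of 0.79. It had 17.7 and 30.7 FPKM at 21 dpi, with a centred ratio of 0.33. All 7 genes of this role lay above the median of all genes at both time points, and none passed the fold after centring at 21 dpi.

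The lectin chaperones differed from each other at 7 dpi. CALR (calreticulin), the soluble lectin, had 300.1 FPKM in ApoE3 and 436 FPKM in ApoE4 at 7 dpi, and 209 and 304 at 21 dpi. CANX (calnexin), its membrane-bound counterpart and the member with the highest level at 7 dpi, had 569 and 609 FPKM at 7 dpi, and 429 and 686 at 21 dpi. The ratio at 7 dpi was 0.54 for CALR and 0.097 for CANX, and both promoters hold the ERSE printed above. At 21 dpi the centred ratios were 0.12 and 0.25.

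MANF and CRELD2 encode small proteins of the lumen that are induced by ER stress and partly secreted. CRELD2 had 4.46 FPKM in ApoE3 and 10.1 FPKM in ApoE4 at 7 dpi, the largest ratio of the members at 1.03. It had 5.87 and 6.19 FPKM at 21 dpi, a ratio of 0.066 and a centred ratio of -0.36. MANF had 51.4 and 90.1 FPKM at 7 dpi, a ratio of 0.80, and 53.2 and 69.5 at 21 dpi, a centred ratio of -0.044. Both genes thus passed the fold at 7 dpi and had a negative centred ratio at 21 dpi, a difference that was not tested.

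**Figure D3:**
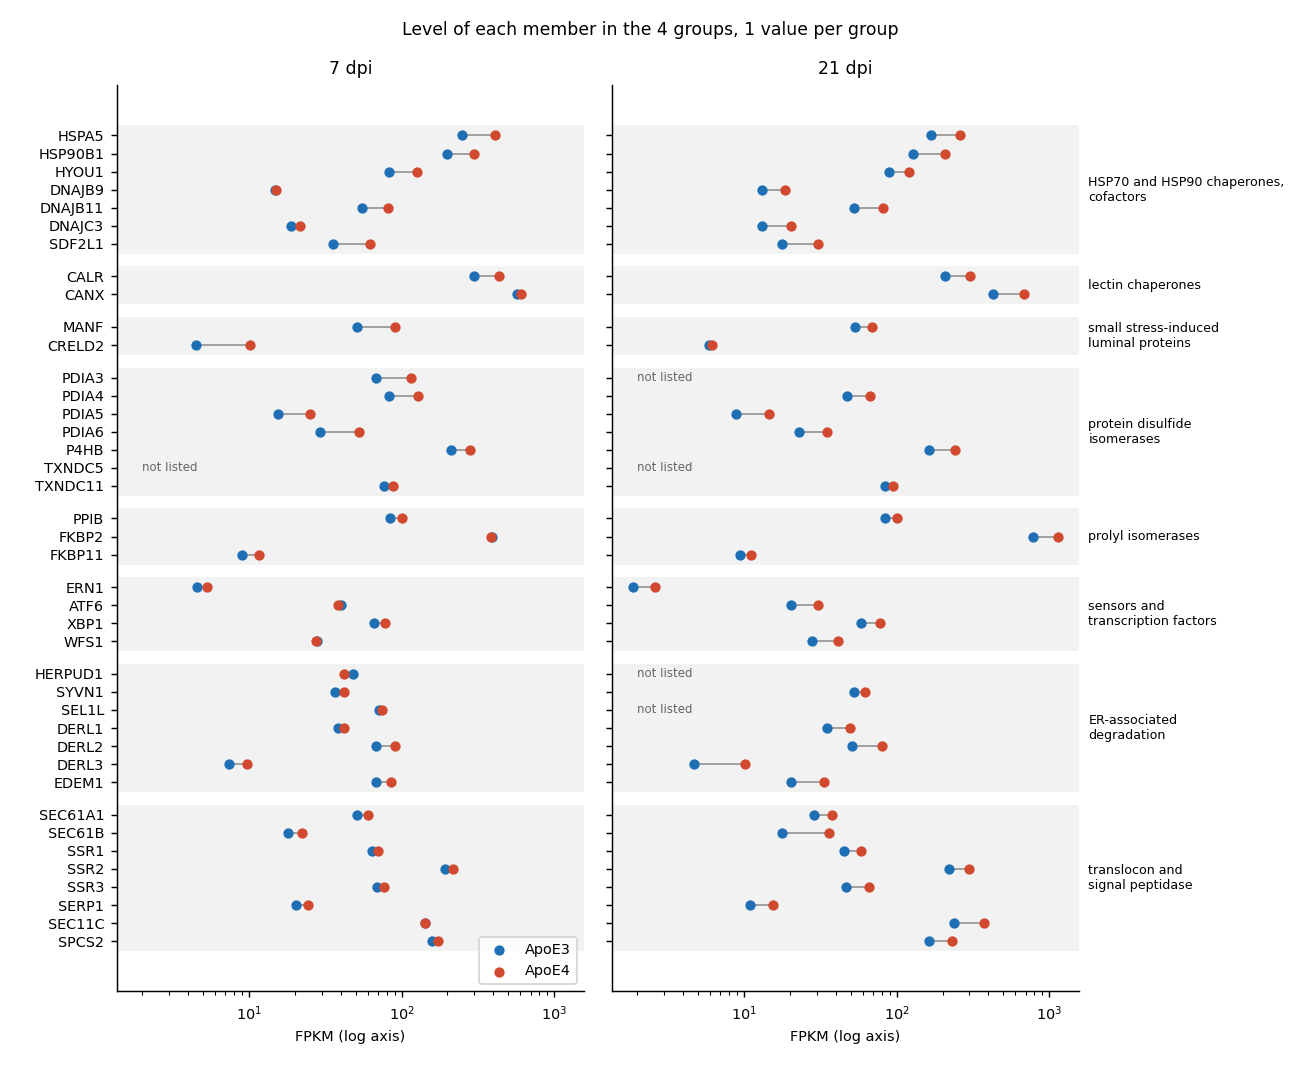
FPKM (log axis) of each member in ApoE3 (blue) and ApoE4 (red) at 7 and 21 dpi, 1 value per group, ordered by role. At 7 dpi the points are apart for HSPA5, at 249 and 409.8, and close together for the chaperone DNAJB9, at 14.7 and 15.01, and the sensor ATF6, at 39.95 and 38.1; genotypes are read from the name of the comparison.

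Of the 6 protein disulfide isomerase genes listed at 7 dpi, 5 were higher in ApoE4, with a median ratio of 0.64. PDIA3, which acts with the lectins on glycoproteins, had 68.3 FPKM in ApoE3 and 115 FPKM in ApoE4 at 7 dpi, a ratio of 0.74. PDIA6, which partners HSPA5, had 29.1 and 52.3 FPKM at 7 dpi, and 22.9 and 35.1 at 21 dpi. Its ratio of 0.83 at 7 dpi was the largest of this role. PDIA4 had 82.6 and 128 FPKM at 7 dpi, and 47.5 and 66.9 at 21 dpi. PDIA5 had 15.5 and 25.02 FPKM at 7 dpi, and 8.84 and 14.7 at 21 dpi. The ratios of PDIA4 and PDIA5 at 7 dpi were 0.63 and 0.66. P4HB, which is both a disulfide isomerase and a subunit of the collagen prolyl hydroxylase, had 212 and 281 FPKM at 7 dpi, a ratio of 0.41, and 164 and 242 at 21 dpi. TXNDC11 had a ratio of 0.21 at 7 dpi and a centred ratio of -0.23 at 21 dpi. The centred ratios of the 5 genes listed at 21 dpi had a median of 0.14.

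No prolyl isomerase gene passed the fold at 7 dpi. FKBP2 had 392 FPKM in ApoE3 and 383 FPKM in ApoE4 at 7 dpi, a ratio of -0.033. At 21 dpi it had the highest level of the members, with 778 and 1139 FPKM and a centred ratio of 0.13. PPIB (cyclophilin B) and FKBP11 had ratios of 0.27 and 0.33 at 7 dpi, and centred ratios of -0.17 and -0.20 at 21 dpi.

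The sensors and transcription factors had a median ratio of 0.076 at 7 dpi, and none of the 4 passed the fold. ERN1, which encodes the sensor kinase and ribonuclease IRE1, had 4.58 FPKM in ApoE3 and 5.31 FPKM in ApoE4 at 7 dpi, and 1.88 and 2.63 at 21 dpi. XBP1, the transcription factor made when IRE1 splices its messenger RNA, had 66.4 and 78.2 FPKM at 7 dpi, and 58.3 and 77.8 at 21 dpi. Gene-level values do not separate the spliced from the unspliced form. ATF6, the sensor that is cut to release a transcription factor, had 39.95 and 38.1 FPKM at 7 dpi, and 20.2 and 30.7 at 21 dpi. WFS1, an ER membrane protein that restrains ATF6, had 28.03 and 27.5 FPKM at 7 dpi, and 27.7 and 41.3 at 21 dpi. The ratios at 7 dpi ran from -0.066 for ATF6 to 0.23 for XBP1. At 21 dpi the centred ratios were -0.090 for ERN1, -0.013 for XBP1, 0.16 for ATF6 and 0.13 for WFS1. The sign for ERN1 depended on the scaling, with a ratio of 0.031 after both groups were rescaled to the same total.

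Genes of ER-associated degradation, which carries misfolded protein to the proteasome, had a median ratio of 0.20 at 7 dpi, with 1 of 7 higher in ApoE4. DERL2 of the derlin channel family had 67.6 FPKM in ApoE3 and 90.3 FPKM in ApoE4 at 7 dpi, and 51.2 and 80.3 at 21 dpi. DERL3 had 7.39 and 9.72 FPKM at 7 dpi, and 4.72 and 10.2 at 21 dpi, where its centred ratio was 0.55. DERL1 had 38.1 and 42.1 FPKM at 7 dpi, and 34.9 and 49.6 at 21 dpi. The ratios of the derlins at 7 dpi were thus 0.41, 0.35 and 0.14 for DERL2, DERL3 and DERL1. EDEM1, which draws glycoproteins out of the folding cycle, had 67.5 and 85.4 FPKM at 7 dpi, a ratio of 0.33, and 20.3 and 33.5 at 21 dpi. The ratios at 7 dpi were 0.20 for the ubiquitin ligase SYVN1, 0.073 for its adaptor SEL1L and -0.20 for HERPUD1, which joins them to the derlins.

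Genes of the translocon and the signal peptidase had a median ratio of 0.16 at 7 dpi, and none of the 8 passed the fold, with ratios from -0.0088 to 0.29. SEC61B, the beta subunit of the translocon, had 18.1 FPKM in ApoE3 and 22.3 FPKM in ApoE4 at 7 dpi, and 17.6 and 36.2 at 21 dpi. Its centred ratio at 21 dpi was 0.58, while that of the channel subunit SEC61A1 was -0.043. SEC61A1 had 51.4 and 59.9 FPKM at 7 dpi, and 28.96 and 37.997 at 21 dpi. SEC11C, a catalytic subunit of the signal peptidase, had 143 and 142 FPKM at 7 dpi, and 239 and 375 at 21 dpi. SPCS2, another subunit, had 158 and 174 FPKM at 7 dpi, and 162 and 230.2 at 21 dpi. The centred ratios of SEC11C and SPCS2 at 21 dpi were 0.22 and 0.078. SSR2 of the translocon-associated complex had 192 and 216 FPKM at 7 dpi, and 221 and 296 at 21 dpi. SSR3 had 69.1 and 77.2 FPKM at 7 dpi, and 46.6 and 65.5 at 21 dpi. SERP1, a small stress-associated protein of the translocon, had 20.4 and 24.4 FPKM at 7 dpi, and 10.9 and 15.6 at 21 dpi. The centred ratios of SSR1, SSR2, SSR3 and SERP1 at 21 dpi lay between -0.060 and 0.060.

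**Figure D4:**
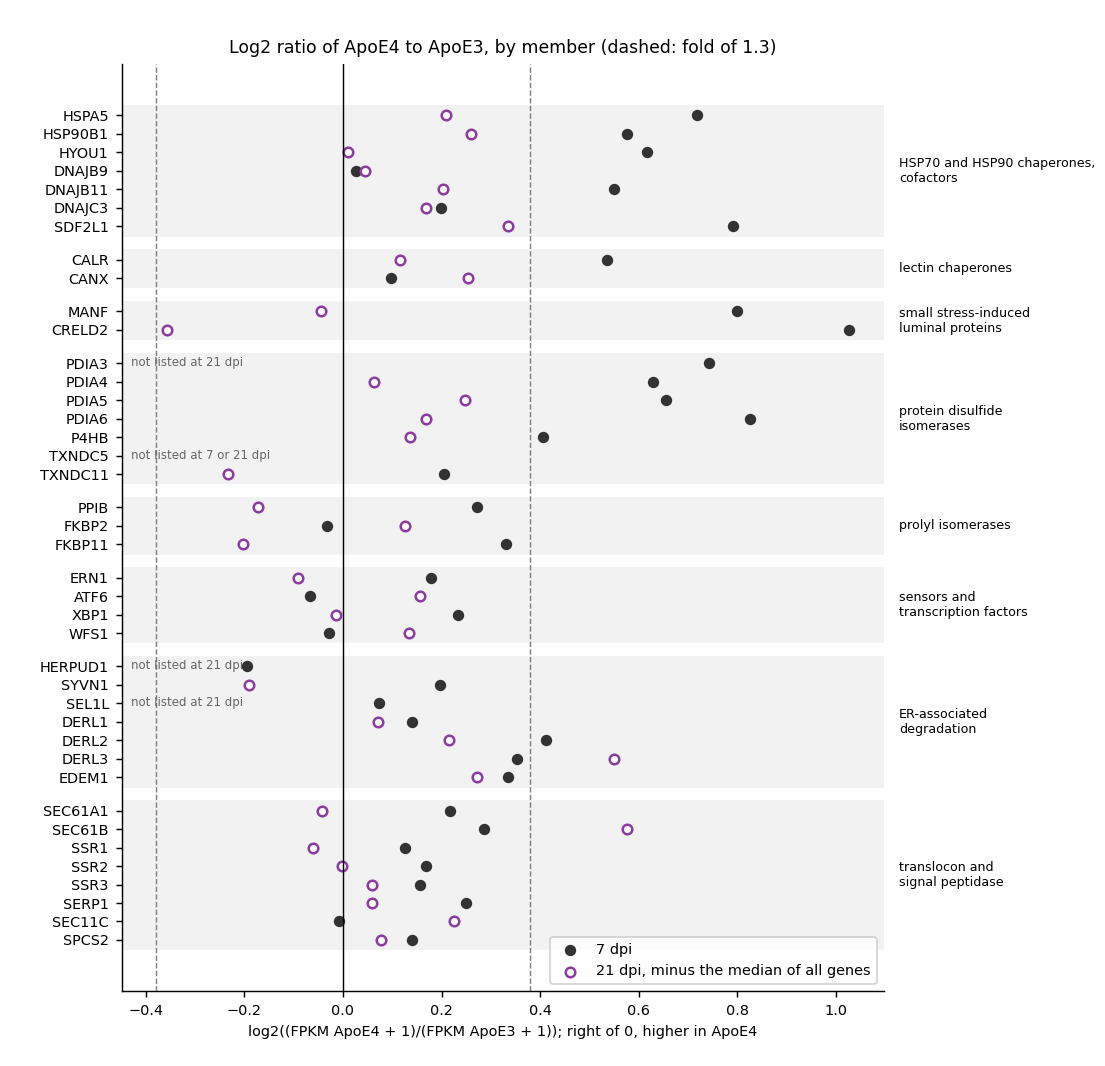
Log2 ratio of ApoE4 to ApoE3 for each member at 7 dpi (filled) and at 21 dpi after the median of all genes was subtracted (open), by role, with dashed lines at a fold of 1.3. The filled points past the fold are 14 members, all to the right, and the open points past it are SEC61B and DERL3.

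The 14 members past the fold at 7 dpi had a median ratio of 0.64, and the other 25 listed members one of 0.17, with 20 of the 25 above 0. Of the 14, 13 were listed at 21 dpi, with centred ratios from -0.36 to 0.33 and a median of 0.17. None of the 13 passed the fold after centring. Of the other 25, 23 were listed at 21 dpi, with a centred median of 0.060, and 2 passed the fold.

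Levels were also set side by side across time within each genotype, as the log2 ratio of 21 to 7 dpi minus the median of genes listed at both times with a mean of at least 1 FPKM. In ApoE3, 19 of 36 members were lower at 21 dpi by a fold of at least 1.3, compared to 27.7% of the 10879 genes listed at both, and 3 were higher, compared to 26.6%. In ApoE4, 26 of 36 were lower, compared to 28.6%, and 2 were higher, compared to 26.1%. The median over the members was -0.44 in ApoE3 and -0.65 in ApoE4. EDEM1 had the lowest value in both genotypes, at -1.77 in ApoE3 and -1.85 in ApoE4, and FKBP2 had the highest, at 0.90 and 1.04. HYOU1 was at 0.026 in ApoE3 and -0.60 in ApoE4, and CRELD2 at 0.24 and -1.16. The genotypes share no library in these ratios, but the same values enter the ratios of ApoE4 to ApoE3 above, so these ratios add no separate evidence.

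By rank among the genes listed at both times, the members had a median percentile of 67.8 in ApoE3 and 74.1 in ApoE4 at 7 dpi, and of 61.6 and 61.3 at 21 dpi. HSPA5 was at percentile 91.9 in ApoE3 and 95.6 in ApoE4 at 7 dpi, and at 85.9 and 87.8 at 21 dpi. CRELD2 was at percentile 11.4 and 24.1 at 7 dpi, and at 15.9 and 12.005 at 21 dpi. The ranks at 7 dpi come from the values by which the members were chosen and support nothing further.

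Other genes of the pathway were taken from lists, in which an older symbol of a gene counts as a separate entry. In the PERK and ATF4 arm, which lowers translation and raises stress genes, 2 of 12 listed genes were higher in ApoE4 and 1 was higher in ApoE3 at 7 dpi, with a median ratio of 0.053. CEBPB had 21.6 FPKM in ApoE3 and 37.4 FPKM in ApoE4 at 7 dpi, and NUPR1 had 29.8 and 43.5. DDIT3 (CHOP), a transcription factor of prolonged ER stress, had 130 and 92.95 FPKM, a ratio of -0.48. CHAC1, a glutathione-degrading enzyme under ATF4, had 5.77 and 4.23 FPKM, a ratio of -0.37. In all, 8 of the 12 ratios lay above 0, and a difference from the luminal chaperones was not tested.

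Of 6 listed genes for other ER membrane sensors and proteases, CREB3L1, a collagen-regulating transcription factor, was higher in ApoE4, with 5.75 FPKM in ApoE3 and 8.09 FPKM in ApoE4 at 7 dpi. CREB3, CREB3L2 and ATF6B had ratios of -0.18, 0.088 and 0.087. Of 22 listed genes for oxidative folding and other ER chaperones, 2 were higher in ApoE4, with a median of 0.10. RCN3, a calcium-binding luminal protein, had 95.6 and 148 FPKM at 7 dpi, and KDELR2, a receptor that returns luminal proteins to the ER, had 20.4 and 27.5. RCN1 and KDELR1 had ratios of 0.29 and 0.25.

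None of 12 listed genes for glycan processing and quality control passed the fold, with a median of 0.14 and the largest ratios in PRKCSH at 0.32, MCFD2 at 0.29, LMAN1 at 0.29 and MOGS at 0.26. Of 16 other listed genes of ER-associated degradation, SELENOS, a selenoprotein that binds the derlins, was higher in ApoE4, with 77.6 FPKM in ApoE3 and 127 FPKM in ApoE4, and the median was -0.00020. AUP1, UBXN4 and RNF139 had ratios of 0.30, 0.22 and -0.19. None of 25 listed genes for other translocation, signal peptidase and oligosaccharyltransferase functions passed the fold, with a median of 0.14, and STT3A, SSR4, OSTC and TUSC3 had ratios of 0.29, 0.29, 0.28 and -0.26.

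Chaperones of other compartments were set beside these lists. Of 17 listed cytosolic heat shock genes, 3 were higher in ApoE4 and none in ApoE3 at 7 dpi, with a median ratio of 0.028. HSPA1A had 25.2 FPKM in ApoE3 and 40.4 FPKM in ApoE4, HSPA1B had 3.15 and 5.73, and HSPB1 had 84.1 and 125. HSPA1A and HSPA1B are near-identical genes between which reads could be split, so their separate values are uncertain. HSPA4L had a ratio of -0.16. None of 12 listed mitochondrial chaperones and proteases passed the fold, with a median of 0.042, and HTRA2, TRAP1, HSPE1 and HSPD1 had ratios of 0.23, 0.18, 0.18 and 0.15. At 21 dpi, no list of these 8 had a centred median beyond 0.096 in size, and 4 genes passed the fold after centring. HSPB1 and FKBP7 did so on the side of ApoE4, at 0.56 and 0.52. CREB3L1 and HSF1 did so on the side of ApoE3, at -0.59 and -0.38, and CREB3L1 had 2.09 and 1.75 FPKM, the opposite direction to 7 dpi. FKBP7 and HSF1 were named after their values were seen.

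**Figure D5:**
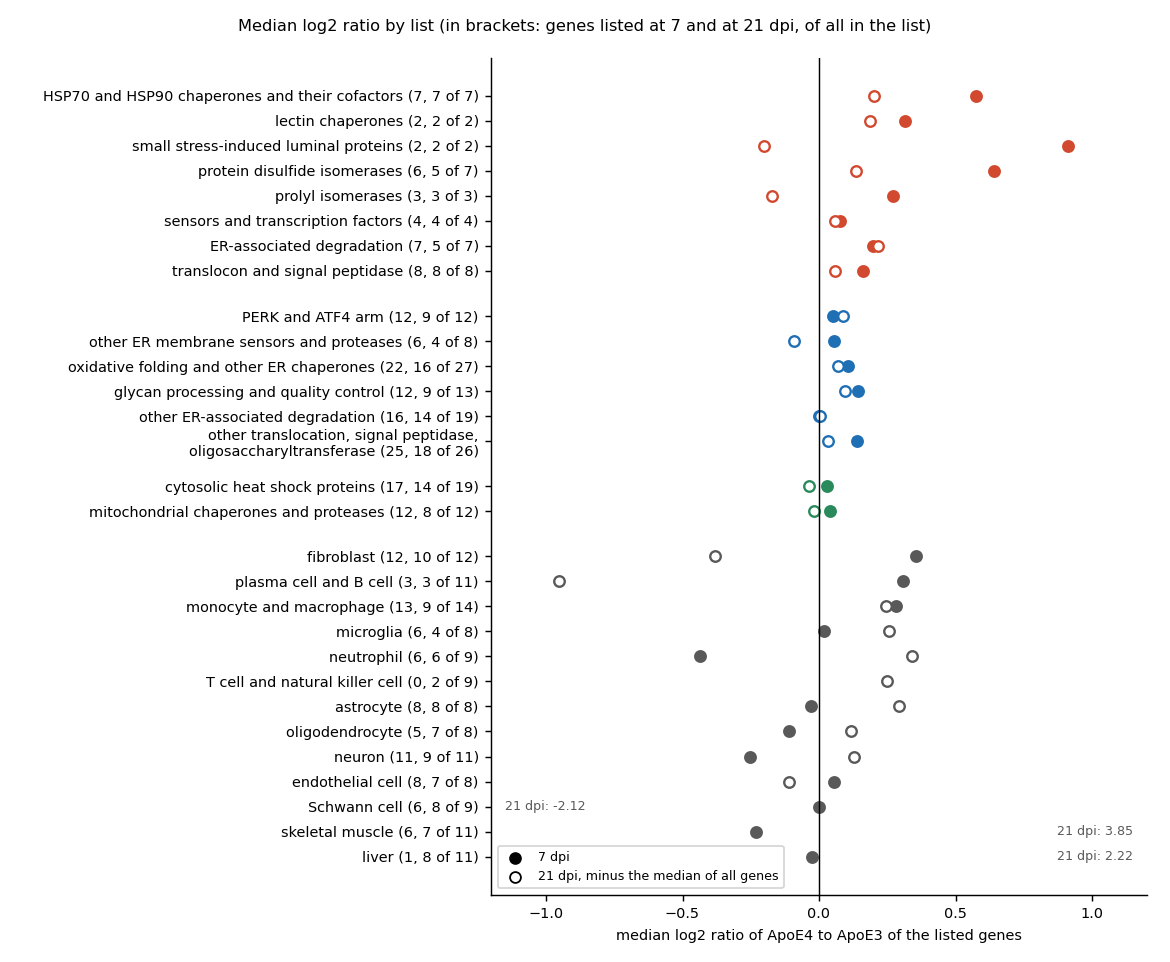
Median log2 ratio of ApoE4 to ApoE3 at 7 dpi (filled) and at 21 dpi after the median of all genes was subtracted (open), for the member roles (red), other pathway lists (blue), chaperones of other compartments (green) and cell type markers (grey). Values off the axis are written as numbers, and the protein disulfide isomerases stand at 0.64 at 7 dpi while the fibroblast markers stand at 0.36.

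Markers of fibroblasts, of monocytes and macrophages and of plasma and B cells had positive median ratios at 7 dpi. All 12 fibroblast markers lay above 0, with a median ratio of 0.36 and a summed level of 1119 FPKM in ApoE3 and 1530 FPKM in ApoE4, and 5 passed the fold. COL1A1, the most abundant in ApoE3, had 212 and 269.96 FPKM, and COL6A3, the most abundant in ApoE4, had 186 and 285. The 13 listed monocyte and macrophage markers had a median of 0.28, with 4 past the fold and 9 above 0, and summed to 9009 and 11808 FPKM. LYZ2, their most abundant gene, had 4522 and 6076 FPKM. Only 3 of 11 plasma cell and B cell markers were listed at 7 dpi, with 31.99 and 39.2 FPKM in all and SDC1 as the most abundant at 23.9 and 27.9. No marker of these lists was listed at 0 at 7 dpi. The part of these cell types in the ratios of the chaperones was not tested.

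The other marker lists at 7 dpi had lower medians. All 11 neuron markers lay below 0, with a median of -0.25 and a sum of 5871 FPKM in ApoE3 and 4630.3 FPKM in ApoE4. The median was 0.017 for 6 microglia, -0.029 for 8 astrocyte, -0.11 for 5 oligodendrocyte and 0.055 for 8 endothelial cell markers. It was -0.44 for 6 neutrophil, -0.00092 for 6 Schwann cell and -0.23 for 6 skeletal muscle markers. The neutrophil markers summed to 537 FPKM in ApoE3 and 622 FPKM in ApoE4, with CSF3R at 485 and 589, and without CSF3R the other 5 summed to 51.7 and 33.4. None of 9 T cell and natural killer cell markers was listed. Of the 11 genes of the liver list only TRF was listed, at 1676 and 1647 FPKM. ALB, APOA1 and APOA2 were not listed at 7 dpi, and TRF alone does not show liver RNA.

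At 21 dpi, 8 of 10 listed fibroblast markers lay below the median of all genes, with sums of 184 FPKM in ApoE3 and 162 FPKM in ApoE4 and a centred median of -0.38. DCN, the most abundant in ApoE3, had 61.9 and 9.37 FPKM, and PDGFRA, the most abundant in ApoE4, had 42.02 and 58.8. Without DCN the other 9 summed to 122 and 152 FPKM, the opposite direction. Sums are not corrected for the shift of all genes at 21 dpi, and the centred median of these 9 was still below 0, at -0.26. The 9 listed monocyte and macrophage markers had a centred median of 0.25, with sums of 454 and 819 FPKM, and LYZ2 had 212 and 426. The 3 listed plasma cell and B cell markers summed to 13.8 and 10.8 FPKM, and to 3.09 and 4.04 FPKM without SDC1. Their centred median was -0.95, and -0.25 without SDC1. The centred median was 0.26 for microglia, 0.34 for neutrophils, 0.25 for 2 T cell and natural killer cell genes, 0.29 for astrocytes, 0.12 for oligodendrocytes, 0.13 for neurons and -0.11 for endothelial cells. It was -2.12 for Schwann cells, 3.85 for skeletal muscle and 2.22 for liver. The part of any of these in the members' levels at 21 dpi was not tested.

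The promoter element was set beside the ratios last. The 9 members that hold the ERSE had a median ratio of 0.54 at 7 dpi, with 5 of 9 higher in ApoE4, namely HSPA5, HSP90B1, CALR, CRELD2 and PDIA6. The 23 listed members with a window and without the ERSE had a median of 0.25, with 7 higher in ApoE4. Of all genes, 4.76% were higher in ApoE4 at 7 dpi. The members were chosen by these ratios, so the values at 7 dpi are a description and support nothing further. CANX, DNAJC3, SYVN1 and DERL3 hold the ERSE and were not past the fold, but DERL3 passed it with smaller pseudocounts, at 0.39 with either 0.1 or 0.01. At 21 dpi the centred median was 0.17 for the 9 and 0.070 for 20 listed members without the element. Whether the element bears on the ratios was not tested.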

How the data were processed

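The authors sequenced lesion RNA, and the submitters' processing notes name STAR 2.5.4b, Bowtie2 2.1.10, SAMtools 0.1.7 and Cuffdiff 1.3.0. The genome build is not given in the sources used here. The deposited values are FPKM plus 1, with 1 value per gene and group that the authors made from the mice of the group, and 1 was subtracted. The table also holds the authors' fold changes, p-values and q-values, and a second table their selected genes. None of these was used. Log2 ratios had a pseudocount of 1 on the FPKM, with no filter on low values. No test was run, since each group has 1 value. At each time 2 symbols were on a second row, and the first was kept.

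The members and lists were chosen with earlier results of these data known. Values in all groups were given for members past the fold at either time, the sensors and transcription factors, the 2 most abundant members and the 2 nearest to the fold on each side. Other lists gave up to 4 genes with the largest ratio in size at 7 dpi. Alternatives were pseudocounts of 0.1 and 0.01, a minimum mean of 1 FPKM, centring, rescaling to the same total, folds of 1.5 and 2, and ranks among all listed genes. A further alternative, chosen after seeing the data, paired the value columns with the genotypes by their numbers. Promoters were those of RefSeq (GRCm38.p6), matched by symbol, with 69 genes matched by an older symbol. Procedures were tested on simulated data. Python 3.11.15, numpy 2.4.6, pandas 2.3.3 and matplotlib 3.10.9 were used.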

Additional observations from a re-analysis of the deposited data

Results flagged for a closer look

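CRELD2 and MANF lay past the fold on the side of ApoE4 at 7 dpi and had a negative ratio at 21 dpi once the shift of all genes was subtracted. The centred ratio of CRELD2 was 1.03 at 7 dpi and -0.36 at 21 dpi, and that of MANF was 0.80 and -0.044. The difference between the time points was not tested for either gene.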

How the results depend on the processing

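At 7 dpi, the 14 members higher in ApoE4 became 9 with a fold of 1.5, beside 1.51% of all genes, and 1 with a fold of 2, beside 0.255%. Other pseudocounts, the minimum mean, centring and rescaling left the count within 1.5 times. With pseudocounts of 0.1 and 0.01 it was 15, beside 6.07% and 6.202% of all genes, with DERL3 past the fold at 0.39 in both. At 21 dpi the same pseudocounts gave 30, beside 62.4% and 62.7%, with ERN1 past the fold at 0.46 and 0.48. The 29 members higher in ApoE4 at 21 dpi became 2 after centring, beside 8.07% of all genes, and 2 after rescaling to the same total, beside 9.24%. They became 13 with a fold of 1.5, beside 22.96%, and 0 with a fold of 2, beside 3.77%. The median ratio at 21 dpi fell from 0.52 to 0.097 with centring and to 0.090 with rescaling. Both subtract a shift shared by most genes, which accounts for the fall by construction.

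After centring, 4 members past the fold at 21 dpi changed sign, MANF to -0.044, XBP1 to -0.013, SEC61A1 to -0.043 and SSR2 to -0.0015. With rescaling they were at -0.051, -0.021, -0.045 and -0.014. The ratios of all 39 members listed at 7 dpi stayed within 1.5 times of the reported value under both pseudocounts, the minimum mean, centring and rescaling.

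With the genotypes read by column number, an alternative chosen after seeing the data, 0 members were higher in ApoE4 at either time, and 14 were higher in ApoE3 at 7 dpi and 29 at 21 dpi. The medians became -0.25 and -0.52. For the later time point, the paper describes more genes as higher in ApoE4 than as higher in ApoE3. That is the direction of the reading by name and not of this alternative.

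Ranks among all genes listed at each time gave median percentiles of 66.7, 71.2, 63.03 and 62.8 for ApoE3 and ApoE4 at 7 dpi and at 21 dpi. No paired analysis was possible because each group has 1 value per gene. Read counts behind the values were not used here, which leaves their counting error unknown, and genes with low values such as CRELD2 and ERN1 are the least certain.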

Other observations

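Genes outside the members that hold the ERSE in their promoter window were found by sequence, after the members were taken out. Since the members were chosen by ratios at 7 dpi, the genes left are not independent of those ratios. Of the 28 genes left, 11 were listed at 7 dpi, with a median ratio of 0.094, and 3 were higher in ApoE4 and 1 in ApoE3. The 3 were XLR3A, with 10.8 FPKM in ApoE3 and 17.8 in ApoE4, XLR3B, with 4.29 and 8.44, and XLR3C, with 3.87 and 6.51. They are paralogs, and their separate values are uncertain for that reason. The gene higher in ApoE3 was ACACB, an acetyl-CoA carboxylase, which had 12.3 and 7.65 FPKM. The other 7 listed genes did not pass the fold, among them ERO1B, an oxidase of ER folding that is listed by its older symbol ERO1LB, with 13.6 and 16.1 FPKM. At 21 dpi, 10 of the 28 were listed, with a centred median of -0.22. None passed the fold on the side of ApoE4 after centring, and 4 passed it on the side of ApoE3, CALR4 at -0.41, XLR3B at -0.56, XLR3C at -0.75 and ZFP57 at -0.82. These genes were named after their values were seen, and no difference from the members was tested.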
